A study of Mus musculus with 26 samples.

Results

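Basal cells of the mouse epididymis were followed through 9 marker genes, *Krt5*, *Krt14*, *Krt15*, *Krt17*, *Trp63*, *Itga6*, *Itgb4*, *Ngfr* and *Dst*. These genes were taken by symbol, whatever their level, and all 9 were found among the 23337 genes of the count tables. RNA-seq had been performed on the initial segment (IS), the most proximal part of the epididymis, on the caput that follows it, and on the testis. The male mice were 3 months old and of a strain labelled C57Bl/6N; 129 hybrid. ArKI mice carry a knock-in allele of the androgen receptor, in which the lysines that accept SUMO, a small protein attached to other proteins after translation, are converted to arginines. The gene lies on the X chromosome and the allele came through the germline, so a male has no WT copy and all of its cell types carry the change. WT mice were the controls. There were 5 ArKI IS, 5 WT IS, 5 ArKI caput, 5 WT caput, 3 ArKI testis and 3 WT testis samples.

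The epididymal duct is lined by a pseudostratified epithelium, in which tall principal cells reach the lumen and flat basal cells sit on the basement membrane. Basal cells of this and other epithelia contain filaments of the type II keratin 5 paired with type I keratins such as 14, 15 and 17. They express p63, a transcription factor needed for stratified and pseudostratified epithelia. They hold on to laminin through hemidesmosomes, which join the integrin pair α6β4 at the membrane to the keratin filaments through linker proteins such as dystonin. The samples were pieces of whole tissue, so fewer basal cells and less RNA per basal cell cannot be told apart in these data. Several of the genes are also used by other cells. Integrin α6 and β4 are made by endothelial cells, dystonin by muscle and nerve, and the neurotrophin receptor encoded by *Ngfr* by nerve and stromal cells.

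In the IS, 6 of the 9 basal genes were lower in ArKI than in WT mice and 0 were higher. The largest falls were those of *Ngfr*, *Dst* and *Krt5*, by 0.80, 0.79 and 0.66 on the log2 scale, followed by *Itgb4*, *Itga6* and *Trp63*. *Krt14*, *Krt15* and *Krt17* did not pass the test. In the caput 1 gene, *Dst*, was lower and the other 8 did not pass the test. In the testis none of the 6 genes with enough counts passed it. A gene was called lower or higher where its Benjamini-Hochberg adjusted p, over all genes tested by the quasi-likelihood method of edgeR, was below 0.05, with no limit on the fold change. With these calls 14.6% of the 13434 genes tested in the IS were lower in ArKI mice and 15.0% were higher, and in the caput 14.0% of 13726 genes were lower and 13.7% higher. With the thresholds of the study, which also ask for a fold change above 2, 4.04% of the genes tested passed for the IS and 4.98% for the caput, and 0 of the 9 basal genes for either. The median log2 fold change over the 9 genes was -0.39 in the IS and 0.04 in the caput, beside -4.4e-05 and 0.0017 over all genes tested. A lower level of basal genes in the ArKI IS, and in that tissue only, was known from earlier results on these samples when the genes were chosen. These counts are therefore not independent evidence of it, or of a difference between the segments.

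Levels below are CPM, counts put on a common library size with TMM factors computed over the 20 epididymal samples or over the 6 testis samples. Total counts per sample were 5829074 to 9770625 in the IS, 4125768 to 11913469 in the caput and 14077013 to 21376604 in the testis. A count of 3 corresponds to 0.313 to 0.507 CPM, 0.249 to 0.667 CPM and 0.141 to 0.215 CPM in these tissues, which covers counting error only. The testis was sequenced in another run than the epididymis, so that tissue and run cannot be told apart and no test was made between them. *Lcn8*, a lipocalin of principal cells of the IS, lay between 9208 and 14244 CPM in the IS, between 28.2 and 1156 CPM in the caput and between 1.04 and 2.22 CPM in the testis, so that the caput samples held unequal, small amounts of this IS transcript. Read counts per gene do not show the amino acid changes of the knock-in allele, and the genotype labels were not checked by them.

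**Figure D1:**
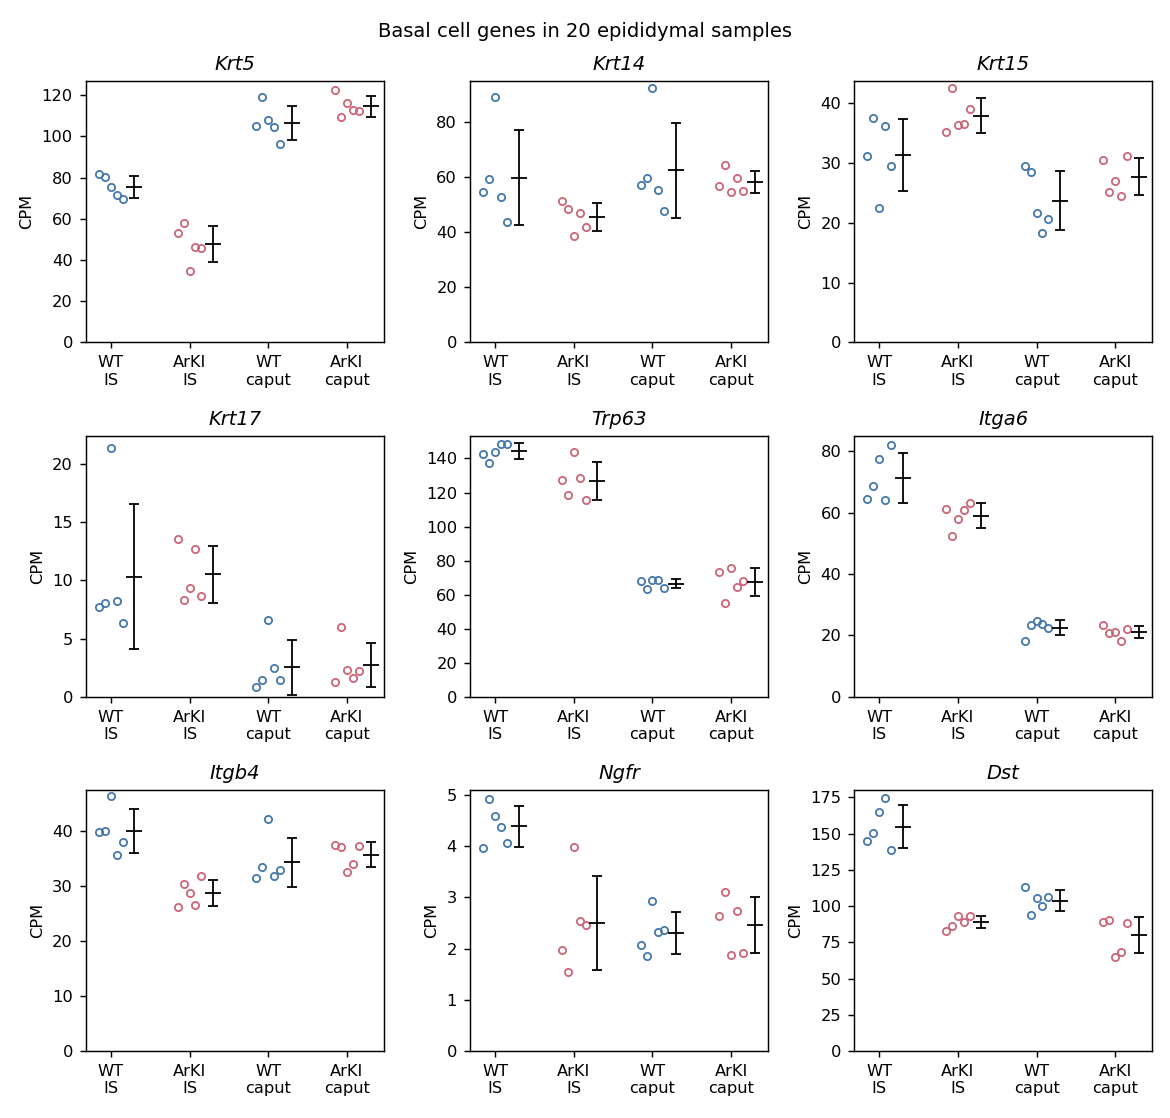
CPM (vertical axes, from 0) of the 9 basal genes in the 20 epididymal samples, with WT in blue and ArKI in red. Circles are samples in the order of their replicate numbers, and the bar beside them gives the mean ± SD (n = 5). The ArKI IS circles of *Krt5*, *Itga6*, *Itgb4* and *Dst* lie below every WT IS circle.

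The regulatory sequence before the start sites is shown for *Krt5*, whose genotype effect differed most clearly between the segments (below), and for *Dst*, the gene lower in both. The sequences are the 250 bases before RefSeq start sites on GRCm38.p6, given 5′ to 3′ on the strand of the gene, at chr15:101712906-101713155 on the minus strand for *Krt5* and at chr1:34011345-34011594 and chr1:34160010-34160259 on the plus strand for *Dst*. Capitals mark the letters GGGCGG or ATAAAA on either strand, a GC box and an element like the TATA box.
Krt5: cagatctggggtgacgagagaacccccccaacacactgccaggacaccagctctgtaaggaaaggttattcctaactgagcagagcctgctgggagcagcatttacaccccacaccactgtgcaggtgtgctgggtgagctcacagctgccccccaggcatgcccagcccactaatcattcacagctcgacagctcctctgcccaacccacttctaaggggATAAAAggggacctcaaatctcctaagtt
Dst, upstream start site: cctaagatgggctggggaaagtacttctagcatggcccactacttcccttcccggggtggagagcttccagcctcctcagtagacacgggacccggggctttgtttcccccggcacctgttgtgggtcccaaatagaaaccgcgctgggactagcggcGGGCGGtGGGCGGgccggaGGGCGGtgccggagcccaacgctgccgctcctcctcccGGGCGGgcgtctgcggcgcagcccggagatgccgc
Dst, downstream start site: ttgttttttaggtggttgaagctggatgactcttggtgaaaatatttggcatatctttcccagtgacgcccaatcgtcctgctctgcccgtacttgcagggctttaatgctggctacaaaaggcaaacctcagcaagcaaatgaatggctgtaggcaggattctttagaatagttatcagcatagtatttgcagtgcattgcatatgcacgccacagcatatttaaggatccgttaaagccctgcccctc
The *Krt5* sequence holds 1 ATAAAA element, 29 bases before the start site, 2 CG dinucleotides and no GC box. Before the upstream *Dst* site there are 4 GC boxes and 22 CG dinucleotides, and before its downstream site no GC box and 5 CG dinucleotides. Over all 32851 start sites of the table the median is 6 CG dinucleotides, GGGCGG is found in 35.7% of the windows of 300 bases and ATAAAA in 18.5%. Both *Dst* start sites, and that of *Krt14*, lie inside the annotated span of the gene, and counts per gene do not tell transcripts from different sites apart. Windows were found for 4 of the 9 genes, these and *Krt14* and *Ngfr*. The bases before the *Ngfr* start site hold 16 CG dinucleotides and 4 GC boxes, and those before the *Krt14* site, which lie within the gene, 5 CG dinucleotides and no GC box. The androgen response element, AGAACA followed after 3 bases by TGTTCT, was searched on both strands, as were its part TGTTCT, the AP-1 letters TGANTCA, the AP-2 letters GCCNNNGGC, TATAAA (which overlaps ATAAAA) and a p53 family element of CATG and again CATG after 6 bases. None of the 5 windows held them, while 0.00913%, 19.0%, 7.81%, 16.6%, 13.6% and 0.712% of all windows did. This says only that these letters are not in these windows.

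Keratins were considered first. *Krt5* (Gene ID 110308, chr15:101707069-101712905 on mm10, minus strand) encodes the type II keratin of basal cells. In the WT IS its level was 81.6, 80.3, 75.5, 71.4 and 69.5 CPM, and 53.3, 57.8, 34.8, 46.5 and 45.9 CPM in the IS of ArKI mice. The highest ArKI sample was under the lowest WT sample, a separation that 11.0% of the genes tested in the IS showed in this direction and 9.23% in the other. The means were 75.7 ± 5.33 CPM in WT and 47.6 ± 8.72 CPM in ArKI mice (SD, n = 5 each), a log2 fold change of -0.66 (SE 0.10, edgeR adjusted p = 3.9e-04). In the caput the order was not the same. WT caput samples had 104.9, 119, 108, 104.6 and 96.4 CPM and ArKI caput samples 122, 109, 116, 113 and 112 CPM, and the ranges overlapped. The log2 fold change there was 0.12 (SE 0.055, edgeR adjusted p = 0.12, 95% interval 0.0041 to 0.24). It passed the threshold without WT caput replicate 2 (edgeR adjusted p = 0.032) and with scaling by library size only (edgeR adjusted p = 0.047).

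*Krt14* (Gene ID 16664, chr11:100203162-100207510, minus strand) encodes the usual type I partner of keratin 5. Its level was 54.7, 59.2, 89.0, 52.7 and 43.6 CPM in the WT IS and 51.3, 48.5, 38.6, 47.1 and 41.8 CPM in the ArKI IS. The ranges overlapped, and WT IS replicate 3 stood above the other 9 samples. The log2 fold change was -0.39 with a 95% interval of -0.82 to 0.044 (edgeR adjusted p = 0.17). Without WT IS replicate 3 it was -0.20, also not called. The WT samples numbered 3 stood apart in the caput too, with 92.2 CPM against 47.9 to 59.9 CPM in the other 4 WT samples and 54.7 to 64.3 CPM in the ArKI samples, where the log2 fold change was -0.097 (edgeR adjusted p = 0.73).

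*Krt15* (Gene ID 16665, chr11:100131759-100135949, minus strand), another type I keratin of basal cells, went the other way in its mean. The WT IS samples had 31.2, 37.6, 22.5, 36.3 and 29.5 CPM and the ArKI IS samples 35.2, 42.6, 36.5, 36.5 and 39.0 CPM. These ranges overlapped, and the log2 fold change of 0.28 (SE 0.11, 95% interval 0.044 to 0.52) missed the threshold with an edgeR adjusted p of 0.071. The call was not stable. The threshold was passed without WT IS replicate 2 (edgeR adjusted p = 0.025) or replicate 4 (edgeR adjusted p = 0.040) and with limma (adjusted p = 0.0497). It was also passed with the replicate number as a block (edgeR adjusted p = 0.018) and with scaling by library size only (edgeR adjusted p = 0.042). Without WT IS replicate 3 the log2 fold change was 0.18 and was not called. In the caput the WT samples had 18.4 to 29.5 CPM and the ArKI samples 24.5 to 31.3 CPM, with a log2 fold change of 0.24 (edgeR adjusted p = 0.19). The ratio of *Krt5* to *Krt15* counts within a sample, which does not depend on scaling between samples, was 1.96 to 3.36 in the WT IS and 0.953 to 1.51 in the ArKI IS. Its ranges did not overlap there, while in the caput it was 3.56 to 5.69 in WT and 3.59 to 4.61 in ArKI mice. These ratios were chosen after the values were seen and are given without a test.

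*Krt17* (Gene ID 16667, chr11:100256215-100261029, minus strand), a keratin of basal cells and of injured or activated epithelium, was the least abundant of the 4 keratins. Its level was 7.67, 8.02, 21.4, 8.20 and 6.36 CPM in the WT IS and 13.6, 8.31, 9.37, 12.7 and 8.67 CPM in the ArKI IS. The value of 21.4 CPM belonged to WT IS replicate 3, and the other 4 WT samples lay below every ArKI sample. With all samples the log2 fold change was 0.035 (SE 0.36, edgeR adjusted p = 0.96), and without that sample it was 0.48 (SE 0.16, edgeR adjusted p = 0.039), a rise. In the caput *Krt17* was near the limit of the depth, with 8 to 56 counts in WT and 11 to 27 counts in ArKI samples, and its 95% interval for the log2 fold change, -1.39 to 1.32, was too wide to tell a fall from a rise.

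Reads of 50 bases can be shared between keratin genes. Of the 50-base windows in the transcripts of *Krt5*, 12.2% also occur in another gene, most often *Krt6a*, and for *Krt14* 13.9%, most often *Krt16*. The authors counted uniquely mapped reads only, and *Krt6a* and *Krt16* had 0 counts in all 20 epididymal samples. For *Krt17* the share was 4.0%, most often with *Krt14*, and for *Krt15* 0.64%.

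*Trp63* (Gene ID 22061, chr16:25683763-25892088, plus strand) encodes p63 and had the smallest fall among the called genes. The WT IS samples had 143, 137, 144, 149 and 148 CPM and the ArKI IS samples 127, 119, 144, 129 and 115 CPM. ArKI IS replicate 3 lay within the WT range and the other 4 ArKI samples below it. The means were 144 ± 4.58 CPM and 127 ± 11.0 CPM (SD, n = 5 each), a log2 fold change of -0.18 (SE 0.055, edgeR adjusted p = 0.017). This call was lost without ArKI IS replicate 5 (edgeR adjusted p = 0.053) and with scaling by library size only (edgeR adjusted p = 0.070). In the caput WT samples had 63.3 to 68.7 CPM and ArKI samples 55.2 to 75.8 CPM, and the log2 fold change was 0.040 (95% interval -0.097 to 0.18, edgeR adjusted p = 0.71). The count ratio of *Krt5* to *Trp63* was 0.468 to 0.584 in the WT IS and 0.242 to 0.487 in the ArKI IS, ranges that overlapped, and was 1.505 to 1.89 and 1.53 to 1.98 in the caput.

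The hemidesmosome genes were lower together in the ArKI IS. *Itgb4* (Gene ID 192897, chr11:115974725-116008412, plus strand) encodes the β4 chain, which pairs with α6 alone. It had 39.8, 40.1, 46.4, 35.6 and 37.9 CPM in the WT IS and 26.2, 30.4, 28.8, 26.5 and 31.8 CPM in the ArKI IS, without overlap. The log2 fold change was -0.47 (SE 0.078, edgeR adjusted p = 1.4e-04). In the caput the WT samples had 31.4 to 42.2 CPM and the ArKI samples 32.6 to 37.6 CPM, with a log2 fold change of 0.066 (95% interval -0.11 to 0.24, edgeR adjusted p = 0.61).

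*Itga6* (Gene ID 16403, chr2:71786886-71858427, plus strand) encodes the α6 chain, which can pair with β1 as well as β4. Levels were 64.4, 68.6, 77.4, 64.0 and 81.9 CPM in the WT IS and 61.0, 52.3, 57.9, 60.8 and 63.1 CPM in the ArKI IS. The groups did not overlap, though the highest ArKI and the lowest WT sample were close. The log2 fold change was -0.27 (SE 0.071, edgeR adjusted p = 0.0081). In the caput it was -0.082 (95% interval -0.28 to 0.11, edgeR adjusted p = 0.56), with 18.3 to 24.7 CPM in WT and 18.1 to 23.4 CPM in ArKI samples.

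*Dst* (Gene ID 13518, chr1:33907888-34308662, plus strand) encodes dystonin, whose epithelial form BP230 links keratin filaments to the hemidesmosome and whose other forms bind actin and microtubules in muscle and nerve. It was lower in ArKI mice in both segments. The WT IS samples had 145, 150.0, 165, 175 and 139 CPM and the ArKI IS samples 83.2, 86.2, 93.3, 89.2 and 93.3 CPM. The gap between the groups was wider than the spread within either of them. Means were 155 ± 14.8 CPM and 89.0 ± 4.41 CPM (SD, n = 5 each), and the log2 fold change was -0.79 (SE 0.061, edgeR adjusted p = 1.3e-08). In the caput the WT samples had 113, 93.8, 105, 100.2 and 106 CPM and the ArKI samples 89.3, 90.3, 64.8, 68.7 and 88.5 CPM. Here too the groups did not overlap, by a small margin, a separation that 9.97% of the genes tested in the caput showed in this direction and 10.1% in the other. The log2 fold change was -0.36 (SE 0.10, edgeR adjusted p = 0.022), a call that was lost without WT caput replicate 1 (edgeR adjusted p = 0.054) and with scaling by library size only (edgeR adjusted p = 0.070).

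*Ngfr* (Gene ID 18053, chr11:95568818-95587698, minus strand), the p75 neurotrophin receptor that marks basal cells of several epithelia, was barely expressed. The WT IS samples had 33, 43, 37, 31 and 39 counts, or 3.96, 4.92, 4.60, 4.38 and 4.06 CPM, and the ArKI IS samples 15, 11, 28, 15 and 21 counts, or 1.98, 1.55, 3.97, 2.53 and 2.46 CPM. ArKI IS replicate 3 reached the lowest WT sample and the other 4 lay below the WT range. The log2 fold change was -0.80 with a wide 95% interval of -1.27 to -0.34 (edgeR adjusted p = 0.0094). In the caput, with 14 to 32 counts per sample, it was 0.063 (95% interval -0.40 to 0.53, edgeR adjusted p = 0.91).

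**Figure D2:**
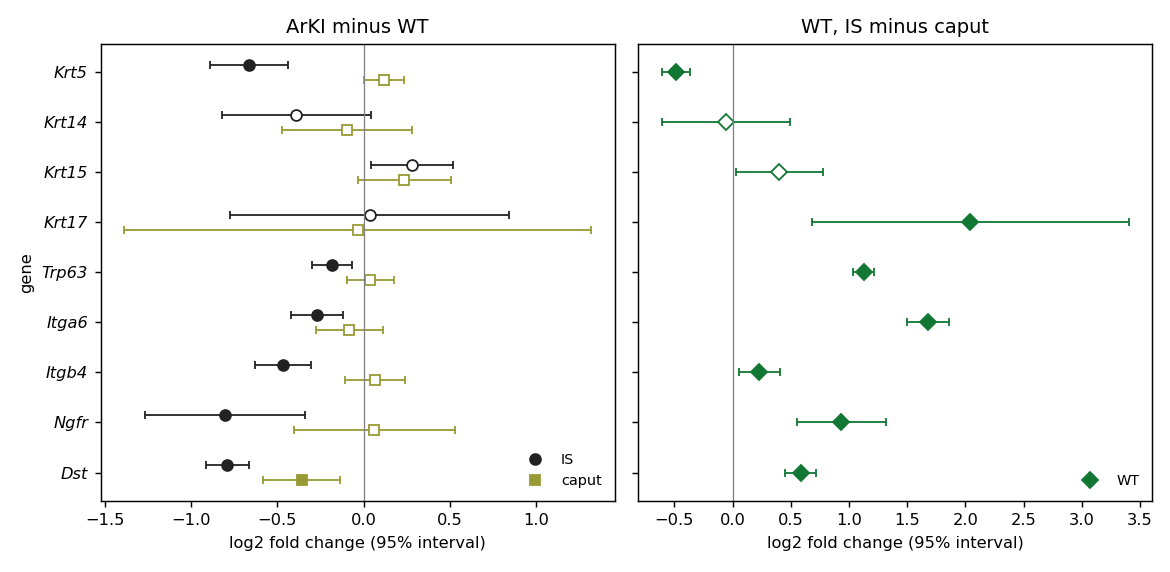
Log2 fold changes of the 9 basal genes with 95% intervals, ArKI minus WT on the left for the IS (circles) and the caput (squares), and WT IS minus WT caput on the right. Filled symbols passed an adjusted p of 0.05: 6 genes in the IS, 1 in the caput, and 7 between the WT segments, of which *Krt5* alone was lower in the IS.

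A test of the difference between the segments was made in the 20 epididymal samples, as the interaction of segment and genotype. A fall in the IS only was known when the genes were chosen, so the calls of this test are not independent evidence of a difference. Both segments were taken from the same 5 WT and 5 ArKI mice, but the labels do not tie samples to a mouse, so that this test and that between the WT segments treat samples of 1 mouse as independent. In 3 of the 9 genes the ArKI effect was lower in the IS than in the caput, and in 0 it was higher, while 7.38% of the 14329 genes tested were called in this direction, 7.77% in the other and 3.10% with the thresholds of the study. The difference of the log2 fold changes was -0.78 for *Krt5* (SE 0.12, edgeR adjusted p = 9.0e-05), -0.53 for *Itgb4* (SE 0.12, edgeR adjusted p = 0.0024) and -0.42 for *Dst* (SE 0.13, edgeR adjusted p = 0.024). The call of *Dst* was lost without WT caput replicate 2, at an edgeR adjusted p of 0.05001, without both WT samples numbered 3 (edgeR adjusted p = 0.060) and with the replicate number as a block (edgeR adjusted p = 0.062). Neither *Ngfr*, at -0.86 (SE 0.31, edgeR adjusted p = 0.061), nor *Trp63*, at -0.22 (SE 0.087, edgeR adjusted p = 0.087), passed the threshold in edgeR with all samples and no block. Without ArKI IS replicate 3 both did (edgeR adjusted p = 0.012 and 0.019), and the count of called genes was 5. *Ngfr* also passed without WT caput replicate 3, ArKI caput replicate 3 or ArKI caput replicate 5 (edgeR adjusted p = 0.046, 0.046 and 0.048) and with limma (adjusted p = 0.046). *Trp63* also passed without ArKI caput replicate 2 (edgeR adjusted p = 0.028) and with the replicate number as a block (edgeR adjusted p = 0.046). For *Itga6* the difference was -0.18 (95% interval -0.43 to 0.068, edgeR adjusted p = 0.35), and for *Krt14*, *Krt15* and *Krt17* the adjusted p was 0.52, 0.91 and 0.96. It was therefore not shown for these that the 2 segments differ in their response.

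Most of the basal genes also differed between the segments of the WT duct, as did most of all genes tested. In WT mice 6 of the 9 were higher in the IS than in the caput and 1 was lower, where 35.8% and 35.4% of the 13787 genes tested were called higher and lower. Groups without overlap were seen in 29.8% and 27.9% of these genes, and 20.8% passed the thresholds of the study. *Krt17* was at 10.3 ± 6.21 CPM in the IS and 2.54 ± 2.33 CPM in the caput (SD, n = 5 each), a log2 difference of 2.04 (SE 0.59, edgeR adjusted p = 0.013), although 1 caput sample reached the IS range. The difference was called with any 1 sample left out, between 1.60 without WT IS replicate 3 and 2.77 without WT caput replicate 3. *Itga6* was higher in the IS by 1.68 (SE 0.087, edgeR adjusted p = 1.2e-11) and *Trp63* by 1.13 (SE 0.043, edgeR adjusted p = 8.8e-15) on the log2 scale, both without overlap. The other genes higher in the IS were *Ngfr* by 0.93 (edgeR adjusted p = 1.3e-04), *Dst* by 0.58 (edgeR adjusted p = 1.8e-07) and *Itgb4* by 0.23 (edgeR adjusted p = 0.022), which lost its call without any 1 of 4 samples (edgeR adjusted p = 0.052 to 0.064).
*Krt5* was lower in the IS than in the caput of WT mice, with a log2 difference of -0.48 (SE 0.058, edgeR adjusted p = 3.2e-07) and no overlap. *Krt14* did not pass the test, at -0.055 (95% interval -0.61 to 0.50, edgeR adjusted p = 0.85), and *Krt15* was just above the threshold, at 0.40 (edgeR adjusted p = 0.053), and past it with DESeq2 (adjusted p = 0.010), limma (adjusted p = 0.024), the replicate number as a block (edgeR adjusted p = 0.013), both WT samples numbered 3 left out (edgeR adjusted p = 0.019), or without WT IS replicate 3, WT caput replicate 1 or WT caput replicate 2 (edgeR adjusted p = 0.0063, 0.025 and 0.036). The main transcription factor of basal cells and their main keratin thus had opposite orders between the segments. In the ArKI mice, whose segments were not tested against each other, the means were 47.6 CPM in the IS and 115 CPM in the caput for *Krt5*, and 127 CPM and 67.4 CPM for *Trp63*.

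Levels of different genes were compared per length, as RPKM over the exons of each gene in the GENCODE annotation. In the WT IS, *Krt5* at 34.4 ± 2.42 RPKM and *Krt14* at 34.0 ± 9.84 RPKM stood highest and did not differ beyond their spread, ahead of *Krt15* at 17.8 ± 3.41, *Trp63* at 17.2 ± 0.55, *Itga6* at 7.89 ± 0.89, *Krt17* at 6.65 ± 4.01, *Itgb4* at 5.70 ± 0.58, *Dst* at 3.76 ± 0.36 and *Ngfr* at 1.27 ± 0.11 RPKM (SD, n = 5). For *Dst* the exons of all transcripts sum to 41155 bases, and RPKM understates genes whose cells use only some of their exons. In the WT caput *Krt5*, at 48.5 ± 3.76 RPKM, stood above *Krt14*, at 35.6 ± 9.78 RPKM, and *Trp63* stood at 7.93 ± 0.32 RPKM.

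The testis has no basal epithelial cells of this kind, and gave a background for the basal genes. *Krt5* had 3, 4 and 6 counts in WT and 3, 8 and 8 counts in ArKI testis samples, *Krt14* 1 to 6 counts and *Krt17* 0 to 2 counts. These 3 genes were below the filter on low counts, and two-sided exact permutation tests of log2(CPM + 0.5) gave p = 0.9, 1 and 0.7, where 3 samples against 3 cannot go below 0.1. *Krt15*, at 11 to 19 counts, *Itgb4*, at 21 to 32 counts, and *Trp63*, at 35 to 46 counts, lay at 0.780 to 2.80 CPM, above the level of 3 counts. *Itga6*, *Ngfr* and *Dst* had more reads. *Itga6* lay at 8.11 to 11.6 CPM in WT and at 9.32 to 12.6 CPM in ArKI testis. *Ngfr* had 28.0, 25.5 and 33.4 CPM in WT and 27.3, 24.99 and 24.4 CPM in ArKI testis, and *Dst* 246, 234 and 282 CPM in WT and 181, 227 and 228 CPM in ArKI testis, so that reads of these genes come also from tissue without epididymal basal cells. Of the 6 genes tested, edgeR called 0 in the testis, where 0.328% of 15838 genes were called lower and 1.64% higher, and DESeq2 and limma also called 0. At an unadjusted p below 0.05 there was 1, *Dst*, with a log2 fold change of -0.26 (SE 0.089, edgeR adjusted p = 0.20) and no overlap between the groups. *Krt15* did not overlap either, being higher in the 3 ArKI samples, with a log2 fold change of 0.39 (SE 0.31, edgeR adjusted p = 0.64). Separation of the groups was seen in 8.18% of the genes tested in the testis for lower and in 9.60% for higher levels, and 0.833% passed the thresholds of the study.

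Genes that work with the basal genes were then examined in lists written with the design. For these lists and the marker lists below, the shares over all genes tested were 14.6% lower and 15.0% higher in the IS. In the caput they were 14.0% and 13.7%. Among 12 further genes of the hemidesmosome and its laminin ligands, 8 were lower and 1 was higher in the ArKI IS, with a median log2 fold change of -0.32, and 3 were lower and 1 higher in the caput. *Col17a1*, which encodes the collagen XVII (BP180) of the hemidesmosome, had 32.9 to 37.3 CPM in the WT IS and 12.5 to 20.6 CPM in the ArKI IS, with a log2 change of -0.97 (SE 0.097, edgeR adjusted p = 3.0e-07). In the caput it was lower by less, at -0.37 (SE 0.076, edgeR adjusted p = 0.0012). Genes of laminin-332, the ligand of α6β4, moved in both directions. *Lamb3* was lower in the IS (log2 fold change -0.51, edgeR adjusted p = 1.5e-05) and in the caput (-0.54, edgeR adjusted p = 9.5e-04), whereas *Lama3* was higher both in the IS (0.87, SE 0.077, edgeR adjusted p = 2.9e-07) and in the caput (0.69, SE 0.068, edgeR adjusted p = 8.7e-07). *Itga3*, a chain of the other laminin-332 receptor α3β1, was lower in the IS (-0.41, edgeR adjusted p = 0.0011) and so was *Itgb1* (-0.12, edgeR adjusted p = 0.041).

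Among genes of desmosomes and other filament linkers, 2 were lower and 1 was higher of 12 tested in the IS, near the shares over all genes, with a median of 0.0010. *Macf1*, a relative of dystonin that links actin and microtubules, was lower (log2 fold change -0.21, SE 0.046, edgeR adjusted p = 0.0014), as was the desmosomal cadherin *Dsc2* (-0.42, SE 0.13, edgeR adjusted p = 0.021), and *Evpl*, which encodes envoplakin, was higher (0.60, SE 0.13, edgeR adjusted p = 0.0021). In the caput *Macf1* was also lower (-0.15, edgeR adjusted p = 0.021) and *Evpl* also higher (0.42, edgeR adjusted p = 0.0076), while *Dsc2* did not pass the test (-0.14, edgeR adjusted p = 0.31). Among the simple keratins of luminal cells, *Krt7* was lower in the IS (-0.54, SE 0.089, edgeR adjusted p = 2.4e-04), and so was *Krt23* (-0.32, SE 0.068, edgeR adjusted p = 0.0023). *Krt20* had 0.208 to 0.497 CPM in the WT IS and 1.85 to 3.83 CPM in the ArKI IS, and since it passed the filter on low counts through the ArKI group, its call as higher is not a separate result. *Krt8* (-0.0013, edgeR adjusted p = 0.99) and *Krt18* (-0.019, edgeR adjusted p = 0.77), the general keratins of the luminal cells, did not pass the test there.

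Partners and known targets of p63 were spread in both directions. Of 19 tested in the IS, 5 were lower and 2 higher, and of 18 in the caput 5 were lower and 6 higher. *Jag2*, a Notch ligand (log2 fold change -0.54, SE 0.072, edgeR adjusted p = 1.2e-05), the large cadherin *Fat2* (-0.78, SE 0.12, edgeR adjusted p = 6.2e-05) and the transcription factor *Runx1* (-0.28, SE 0.048, edgeR adjusted p = 2.2e-04) were lower in the IS. *Fat2* was higher in the ArKI caput (0.42, SE 0.10, edgeR adjusted p = 0.0047), *Runx1* lower there too (-0.51, SE 0.099, edgeR adjusted p = 9.3e-04), and *Jag2* did not pass the test (0.017, edgeR adjusted p = 0.89). Other surface genes and regulators of basal cells gave 5 lower and 1 higher of 9 tested in the IS, and 1 lower and 3 higher in the caput, where 1 of the higher genes, *Lgals7*, at 0.235 to 0.987 CPM in WT and 1.37 to 5.34 CPM in ArKI samples, passed the filter on low counts through the ArKI group. *Bcam*, a laminin receptor (-0.64, SE 0.074, edgeR adjusted p = 1.2e-05), and *Cldn1*, the claudin found around epididymal basal cells (-0.33, SE 0.052, edgeR adjusted p = 8.9e-05), were lower in the IS. *Bcam* was lower in the caput too (-0.38, SE 0.075, edgeR adjusted p = 0.0011), and *Cldn1* did not pass the test there (-0.091, edgeR adjusted p = 0.40). For neither was the interaction of segment and genotype called (edgeR adjusted p = 0.15 and 0.084). The 1 higher gene in the IS was again *Lgals7*, which encodes a galectin, at 0.994 to 3.23 CPM in the WT IS and 3.38 to 10.1 CPM in the ArKI IS. It passed the filter there too with the help of the ArKI group, so its call is not a separate result. In the neurotrophin pathway around *Ngfr*, 3 were lower and 3 higher of 11 tested in the IS. The co-receptor *Sort1* (-0.32, SE 0.045, edgeR adjusted p = 1.9e-05) and the receptor *Ntrk3* (-0.74, SE 0.15, edgeR adjusted p = 0.0011) were lower and *Ngfrap1*, whose product binds the p75 receptor, was higher (0.37, SE 0.067, edgeR adjusted p = 3.5e-04).

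**Figure D3:**
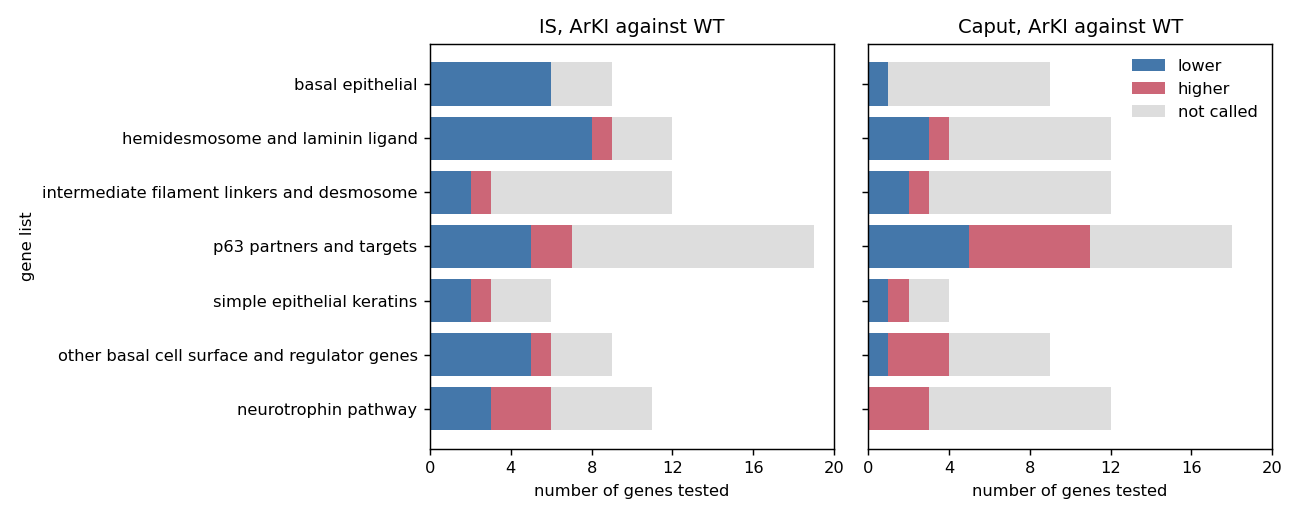
Number of genes tested (horizontal axis) in the basal list and the 6 related lists, split by call, for ArKI against WT in the IS (left) and the caput (right). Lower genes are blue, higher genes red and genes that did not pass the test grey. In the IS the hemidesmosome and laminin list has 8 lower of 12, and in the caput 3.

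Markers of some other cell types in the same samples moved with the basal genes in the ArKI IS, and those of others did not. Smooth muscle markers were lower in 8 of 9 (median log2 fold change -0.98), with a summed level of 3517 to 3797 CPM in WT and 2926 to 3481 CPM in ArKI samples. Most of this sum was *Actg2*, the marker that was not called, with means of 3069 CPM and 2862 CPM, while *Acta2* fell from 217 to 113 CPM and *Myh11* from 188 to 91.4 CPM. Endothelial markers were lower in 7 of 7 (median -0.51), with sums of 148 to 184 CPM and 105 to 123 CPM. Macrophage markers were lower in 3 of 7 and higher in 0, with sums of 176 to 242 CPM and 149 to 207 CPM. Fibroblast markers were higher in 5 of 7 and lower in 1, with sums of 1172 to 1328 CPM and 1316 to 1705 CPM. The part of these cells in the fall of the basal genes was not tested. Among general epithelial markers 1 was lower and 2 were higher of 8 (median 0.025), with sums of 1909 to 2003 CPM in WT and 1977 to 2058 CPM in ArKI samples. Principal cell markers were lower in 5 and higher in 2 of 12, with a median of -0.42, close to that of the basal genes. Their sums overlapped, at 96645.3 to 103357 CPM in WT and 88622.5 to 116305 CPM in ArKI samples. Some of them belong to the caput, such as *Lcn5*, with means of 83.4 CPM in the WT IS and 15468 CPM in the WT caput. Markers of clear and narrow cells were lower in 1 and higher in 3 of 7. Of these *Slc4a9*, at 1 to 7 counts in the WT IS, passed the filter through the ArKI group. Of the Schwann cell markers 1 was lower and 1 higher of 4 tested, while the defining gene *Sox10* had 0 to 3 counts in each IS sample. T cell markers had 0 called of 3 tested, with sums of 4.06 to 6.81 CPM. Sperm transcripts, of which 2 of 9 had enough counts for a test through the WT group, had sums of 10.3 to 73.5 CPM in the WT IS and 1.99 to 5.58 CPM in the ArKI IS.
Keratins of stratified squamous epithelium were nearly absent. *Krt2*, *Krt6a*, *Krt6b* and *Krt16* had 0 counts in every epididymal sample, and *Krt1* and *Krt13* at most 1 count. *Krt10* was the exception, at 5.27 to 7.44 CPM in the WT IS and 13.9 to 17.8 CPM in the ArKI IS, with a log2 change of 1.36 (edgeR adjusted p = 7.6e-08).

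**Figure D4:**
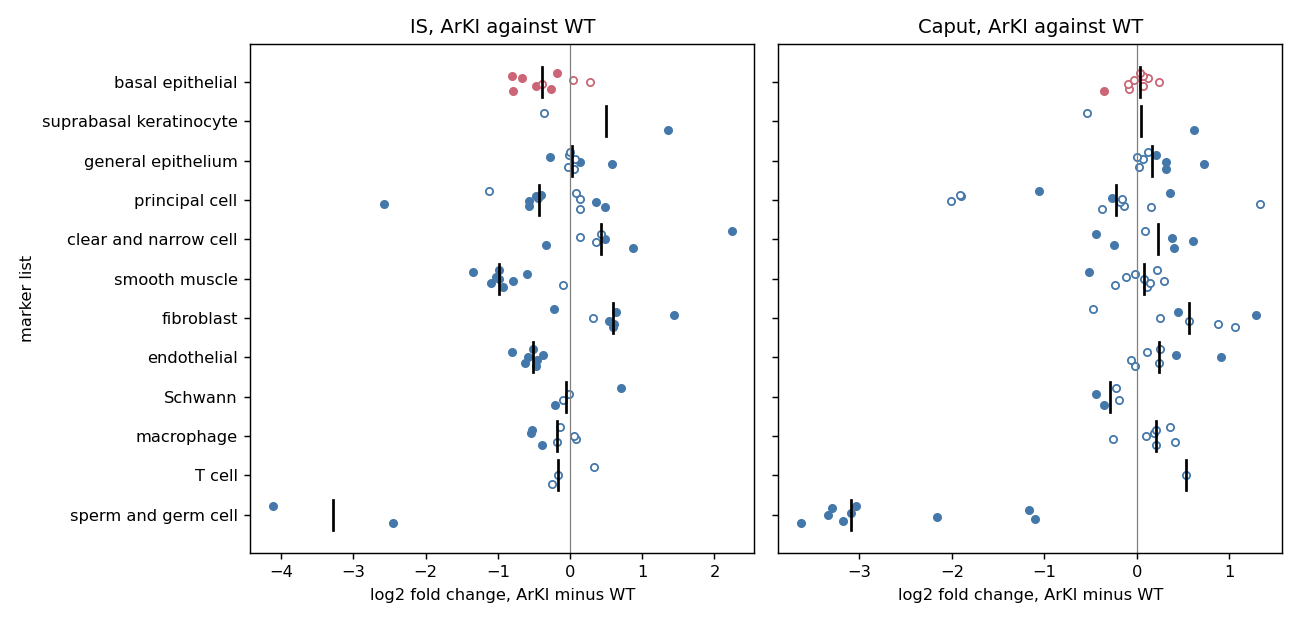
Log2 fold change, ArKI minus WT, of each tested gene of the basal list (red) and of 11 other marker lists (blue) in the IS (left) and the caput (right). Each circle is a gene, filled where its adjusted p was below 0.05, and the black line is the median of the list. In the IS the medians of 8 lists lie below 0, among them the basal (-0.39), principal cell (-0.42), endothelial (-0.51) and smooth muscle (-0.98) lists, which lie at 0.04, -0.23, 0.25 and 0.08 in the caput.

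In the caput some of these lists kept their direction and others did not. Smooth muscle markers were lower in 1 of 9 (median 0.077), endothelial markers higher in 2 of 7 (median 0.25), with sums of 68.1 to 75.9 CPM in WT and 79.1 to 105 CPM in ArKI samples, macrophage markers called in 0 of 7, fibroblast markers higher in 2 of 7 (median 0.56, beside 0.60 in the IS), and general epithelial markers higher in 4 of 8. Sperm transcripts had sums of 232 to 364 CPM in WT and 35.4 to 100.4 CPM in ArKI samples. Markers of Schwann cells, which are known to make dystonin and p75 as well, were lower in 2 of 4 tested, with sums of 142 to 170 CPM and 110 to 142 CPM, and their part in the fall of *Dst* was not tested. ArKI caput replicate 2 had the lowest depth, 4125768 counts, and the highest *Col1a1* and *Tagln*, at 676 and 261 CPM. Without it the caput count stayed at 1 gene, *Dst*.

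Genes with the most similar levels to *Krt5* over the 20 epididymal samples, among 11438 genes, were *Pgm5*, *Prom2*, *Spock1*, *Npr2* and *Wfdc10* (Pearson's r from 0.96 to 0.97 on log2(CPM + 0.5)). *Pgm5*, for example, had means of 44.8 and 26.03 CPM in the WT and ArKI IS and 94.7 and 91.4 CPM in the caput, the same order as *Krt5* but for the caput genotypes. Those most similar to *Trp63* were *Esco1*, *Arhgef2*, *Dusp4*, *Cab39* and *Sf3b3* (r = 0.99 each). These correlations follow mainly the difference between the segments, share libraries and carry no p. Once the group means were taken away, the genes closest to the mean of the 9 basal genes were *Zfp36l2*, *Dll1*, *Iffo2*, *Nup50* and *Rin1*, with r from 0.74 to 0.87. These are the highest values among the 11438 genes and carry no p either. The 9 basal genes did not share 1 profile of deviations. Between pairs of them r went from -0.70 for *Krt5* and *Ngfr* to 0.77 for *Krt14* and *Krt17*.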

How the data were processed

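RNA of the IS, caput and testis was sequenced on 50-base single reads. The authors aligned the reads to mm10 with STAR, counted uniquely mapped reads per RefSeq gene with Subread (1.5.1 in the submitters' processing notes, which also name bcl2fastq 1.8.4), and deposited raw counts for 23337 genes in 26 samples, without normalization. The labels name a TruSeq RNA v2 library guide and the paper's methods a stranded TruSeq kit, so whether strand was used in counting is not known here, and reads of genes that overlap on the other strand (4 such genes cover between 1.11% and 7.66% of the exons of *Krt5*, *Itgb4* and *Dst* and have no row of their own) could be included.

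Members and lists were chosen with earlier results of these data known. Each comparison was fitted on its own groups in R 4.3.3 with edgeR 4.0.16 (filterByExpr with a minimum count of 10 and minimum total of 15, TMM, robust quasi-likelihood test) and adjusted by Benjamini-Hochberg over all genes tested. The SE is the log2 fold change divided by the square root of F. p-values measure the spread between the samples as labelled. The named genes were the 9 basal genes, of each related list up to 3 called in the IS with the smallest adjusted p, the 5 most similar genes for each of 3 profiles (mean CPM of at least 5), and markers of other cell types at or near 0 or moving with the genotype. *Lamb3*, *Itga3*, *Itgb1*, *Krt8* and *Krt18* were named after their values were seen, and some genes that the rule names are not reported here. *Flg* and *Trbc2* of the lists were not analysed here. RPKM used GENCODE M21 exon lengths. Levels of 3 counts and ratios were computed from the counts.

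Alternatives were RLE factors, library size only, 2 other filters, DESeq2 1.42.0, voom in limma 3.58.1 (ROTS, named in the paper's methods, was not run), the study's thresholds (FDR below 0.01, or 0.2 in the testis, and a fold change above 2), the replicate number as a block, 1 fit of all 20 epididymal samples, and each sample left out. Libraries were compared for duplicates, and the lowest chi-square per gene between replicates was 2.43. Plots were made in Python 3.11.15 (matplotlib 3.10.9).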

Additional observations from a re-analysis of the deposited data

Results flagged for a closer look

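In 5 of 36 groups of 5 epididymal samples (9 genes in 4 groups) 1 sample stood apart by Dixon's criterion at the 95% level, where chance gives about 1 in 20, or 1.8. WT caput replicate 3 did so for *Krt14*, at 92.2 CPM against 47.9 to 59.9 CPM in the others, for *Krt17*, at 6.58 CPM against 0.827 to 2.45 CPM, and for *Itgb4*, at 42.2 CPM against 31.4 to 33.4 CPM. WT IS replicate 3 stood apart for *Krt17*, at 21.4 CPM against 6.36 to 8.20 CPM, and ArKI caput replicate 2, the sample with the lowest depth, for *Krt17* at 6.01 CPM against 1.32 to 2.33 CPM.

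The effect of the ArKI allele differed between the IS and the caput, by a test of the interaction, for *Krt5* (difference of the log2 fold changes -0.78), *Itgb4* (-0.53) and *Dst* (-0.42, a call that was lost in 3 of the alternatives at the same threshold). The genes were chosen with a fall in the IS only already known, so these calls are not independent evidence of that difference.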

How the results depend on the processing

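Of the 352 values of called genes under an alternative, 0 changed sign. The study's thresholds, which ask for a fold change above 2, gave 0 basal genes in the IS, 0 in the caput, 0 in the interaction and 2 between the WT segments. Leaving out 1 sample gave 5 to 7 genes in the IS, 0 to 2 in the caput (0 without WT caput replicate 1 and 2 without WT caput replicate 2), 0 in the testis, 2 to 5 in the interaction (5 without ArKI IS replicate 3) and 6 to 8 between the WT segments. With library size only, 5 basal genes were lower and 1, *Krt15*, higher in the IS, and in the caput *Krt5* was called in place of *Dst*. With both WT samples numbered 3 left out, a choice made after seeing the data, the interaction kept 2 calls, and *Dst* lost its own (edgeR adjusted p = 0.060).

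Genes that were not called changed sign as follows. *Krt17* in the caput was 0.0068 with library size only, 0.072 with DESeq2 and 0.16 with limma, and its interaction -0.031 with DESeq2 and -0.19 without the WT samples numbered 3, which moved that of *Krt15* to -0.012. Leaving out 1 sample gave *Krt17* values between -0.11 and 0.48 (IS), -0.38 and 0.70 (caput) and -0.63 and 0.54 (interaction), and moved *Ngfr* from -0.0060 to 0.16 and *Krt14* from -0.18 to 0.085 in the caput, *Itga6* from -0.025 to 0.22 in the testis, *Krt15* from -0.044 to 0.13 in the interaction, and *Krt14* from -0.24 to 0.12 between the WT segments. The cause was not tested.

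The labels give the same replicate numbers to each group but do not say that they mark a mouse, litter or batch. Deviations of samples with the same number correlated at -0.18 to 0.20, and of the 5 pairs 2 in the IS and 1 in the caput (and 1 of 3 in the testis) correlated best with their own number. Between the segments this held for 3 of 5 WT pairs and 2 of 5 ArKI pairs, with correlations of -0.0089 to 0.18 and -0.11 to 0.19. Since not every pair was above 0.1, the numbers were not taken as a pairing. The replicate block gave 7 genes in the IS, where *Krt15* was called higher (edgeR adjusted p = 0.018), 1 in the caput, 0 in the testis, 3 in the interaction (*Trp63* at an edgeR adjusted p of 0.046 in place of *Dst* at 0.062) and 8 between the WT segments, and moved *Krt17* in the caput to 0.089.

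Depth limits *Ngfr* in the epididymis, *Krt17* in the caput and the keratins in the testis.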
